A study of Mus musculus with 2 samples.

Results

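Disease-associated microglia genes are a set of 10 genes that mouse microglia switch on in damaged, ageing and amyloid-bearing brain: Spp1, Gpnmb, Cst7, Itgax, Clec7a, Axl, Lgals3, Fabp5, Igf1 and Cd9. They were taken by gene symbol from the 31053 genes of the count tables. Of these, 9 were measured, and Clec7a, a receptor for fungal glucans, is not analysed here. The study measured single-cell transcriptomes of mouse brain in 2 samples, 1 per group and each a pool. Total brain holds unsorted cells from both sexes at 2 and 24 months of age, with 240 months in its age label. Sorted brain holds male cells from 3 and 12 months of age that had passed a fluorescence-activated sort, whose gate the sources used here do not state. Each sample pools wild type (WT) mice with STING-KO mice, which lack the adaptor that relays the sensing of cytosolic DNA, and 2 mice were grouped per genotype and age. Barcodes of either table end in 1 of 4 suffixes, which the labels do not link to a genotype, age or sex.

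Microglia are the resident macrophages of the brain. In the homeostatic state they carry the purinergic receptor P2ry12 and the membrane protein Tmem119. Around plaques, dying neurons and damaged myelin in mice they take on a lipid-handling state that depends on the receptor Trem2, in which Apoe, Lpl and the genes studied here are induced while homeostatic genes are reduced. The same genes serve other cells outside that state: Fabp5 is a lipid carrier found in many tissues, Lgals3 is abundant in blood myeloid cells, and Axl in vascular and connective tissue cells.

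The secreted members are Spp1, Lgals3 and Igf1. Spp1 (osteopontin, chr5:104435118-104441050, plus strand) is a phosphoprotein that binds integrins and CD44. Lgals3 (galectin-3, chr14:47367751-47386160, plus strand) is a lectin that binds galactose-bearing glycans. Igf1 (chr10:87858265-87937042, plus strand) is a growth factor. The membrane proteins are Itgax (CD11c, chr7:128129547-128150657, plus strand), an integrin alpha chain, Axl (chr7:25757273-25788705, minus strand), a receptor tyrosine kinase for Gas6 that takes part in clearing dying cells, Gpnmb (chr6:49036546-49070929, plus strand), a glycoprotein of lysosomes and melanosomes, and Cd9 (chr6:125460266-125494791, minus strand), a tetraspanin. Inside the cell act Cst7 (cystatin F, chr2:150570415-150578944, plus strand), an inhibitor of lysosomal cysteine proteases, and Fabp5 (chr3:10012548-10016607, plus strand), a fatty acid binding protein. All are protein-coding genes, and their positions are from GENCODE M21 on GRCm38.

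The 250 bases before the RefSeq gene start are shown for Spp1, Cst7 and Itgax, the 3 searched members with a match to the motif GGAAGT described below. The sequences are from RefSeq on GRCm38.p6 and run 5′ to 3′ on the plus strand, and capitals mark matches to short motifs. The windows are chr5:104434861-104435110 for Spp1, chr2:150570165-150570414 for Cst7 and chr7:128129300-128129549 for Itgax.
Spp1: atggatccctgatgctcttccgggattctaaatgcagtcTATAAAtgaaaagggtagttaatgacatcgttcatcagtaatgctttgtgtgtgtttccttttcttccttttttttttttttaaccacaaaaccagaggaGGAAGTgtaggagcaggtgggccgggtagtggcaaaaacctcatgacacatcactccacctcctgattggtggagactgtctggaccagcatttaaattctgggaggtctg
Cst7: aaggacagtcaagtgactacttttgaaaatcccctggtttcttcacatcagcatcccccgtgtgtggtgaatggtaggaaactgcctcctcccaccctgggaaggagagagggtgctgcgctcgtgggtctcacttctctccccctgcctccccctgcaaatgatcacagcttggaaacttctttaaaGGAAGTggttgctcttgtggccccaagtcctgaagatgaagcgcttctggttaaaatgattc
Itgax: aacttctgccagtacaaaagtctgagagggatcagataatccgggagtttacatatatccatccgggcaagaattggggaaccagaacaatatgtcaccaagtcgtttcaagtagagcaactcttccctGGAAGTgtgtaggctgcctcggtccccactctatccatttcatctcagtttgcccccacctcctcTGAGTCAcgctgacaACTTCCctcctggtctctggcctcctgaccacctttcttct

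The 4 motifs searched, on both strands, were the core of PU.1 sites GGAAGT, the AP-1 site TGANTCA, the E-box CACGTG and the TATA box TATAAA. PU.1 is a transcription factor of myeloid cells, and AP-1 factors are immediate early proteins. The PU.1 core stands at −62 before the start of Cst7, at −111 before Spp1 and at −121 and, on the minus strand, −41 before Itgax. It was found in no window of Gpnmb, Cd9, Axl, Igf1 or Lgals3. The windows of the 8 measured members other than Fabp5 were searched. TGANTCA was found in those of Itgax and Igf1, TATAAA in the Spp1 window shown, at −211, and CACGTG in none of the 8. A second Spp1 window, chr5:104435942-104436191, was searched and held none of the 4 motifs. Of 32536 mouse promoters of this length, 19.8% hold the PU.1 core, 6.73% TGANTCA, 12.3% TATAAA and 6.04% CACGTG. These matches are a description of the letters in each window and no evidence of binding.

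After removal of barcodes with fewer than 500 genes or more than 10% mitochondrial counts, 9367 of 14674 barcodes of total brain and 10076 of 13499 of sorted brain remained, with 33498788 and 31220601 unique molecular identifiers (UMIs, 1 per captured transcript molecule) and medians of 1692 and 2293.5 UMIs per cell. Cells were grouped into 30 clusters without using the members or 24 further genes of the state, and clusters were named from marker lists, which left 4 unnamed. Microglia-like cells numbered 575 in total brain, with a median of 4471 UMIs, and 4422 in sorted brain, with a median of 2029 UMIs. All 10 microglia markers were present in both, at a summed level of 22437 UMIs per 1000000 (CPM) in total brain and 34601 CPM in sorted brain. The classes are filled from different clusters: cluster 0, whose leading genes include Cebpa, held 76.7% of the microglia-like cells of total brain and none of sorted brain, while cluster 3, led by P2ry12 and Olfml3, held 21.6% in total brain and 61.8% in sorted brain, and cluster 12, led by the chemokines Ccl4 and Ccl3, 1.74% and 38.2%. Between 0 and 9 barcode sequences were shared by any pair of suffixes within total brain, 10 to 19 within sorted brain and 0 or 1 between the samples. Among markers of other classes in microglia-like cells, choroid plexus markers summed to 498 CPM in total and 8683 CPM in sorted brain, erythroid markers to 512 and 911 CPM, neuron markers to 511 and 21.3 CPM and border macrophage markers to 33.2 and 9.62 CPM, with 4 of the 7 border macrophage markers at 0 in total brain. Their part in the results was not tested. There are no replicates, so no difference below has a test. Brackets give exact 95% intervals (Poisson for levels, Clopper-Pearson for shares) that cover counting error only. Sort, age, sex, libraries and, per the file headers, the version of the counting software differ together between the samples and cannot be told apart.

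In microglia-like cells, 8 of the 9 measured members were at least 2-fold higher in total than in sorted brain and 0 were at least 2-fold lower, with 1 CPM added to both levels. Of all 12856 genes with at least 10 UMIs in these cells, 24.3% were as much higher and 4.09% as much lower. The median log2 ratio was 2.73 over the members and 0.20 over all genes. With TMM scaling the members' counts stayed at 8 and 0, while the shares of all genes became 16.3% and 9.79% and the median of all genes −0.13. Within cluster 3 alone, the one with cells of both samples in number (124 in total and 2731 in sorted brain), 8 of 9 members were again higher and 0 lower, against 9.83% and 34.2% of 10905 genes. This count rests on few cells of total brain. There, 1 cell of suffix 1 held 289 of the 338 Spp1 UMIs of cluster 3, Gpnmb had 14 UMIs in 3 cells and Igf1 13 UMIs in 5 cells.

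**Figure D1:**
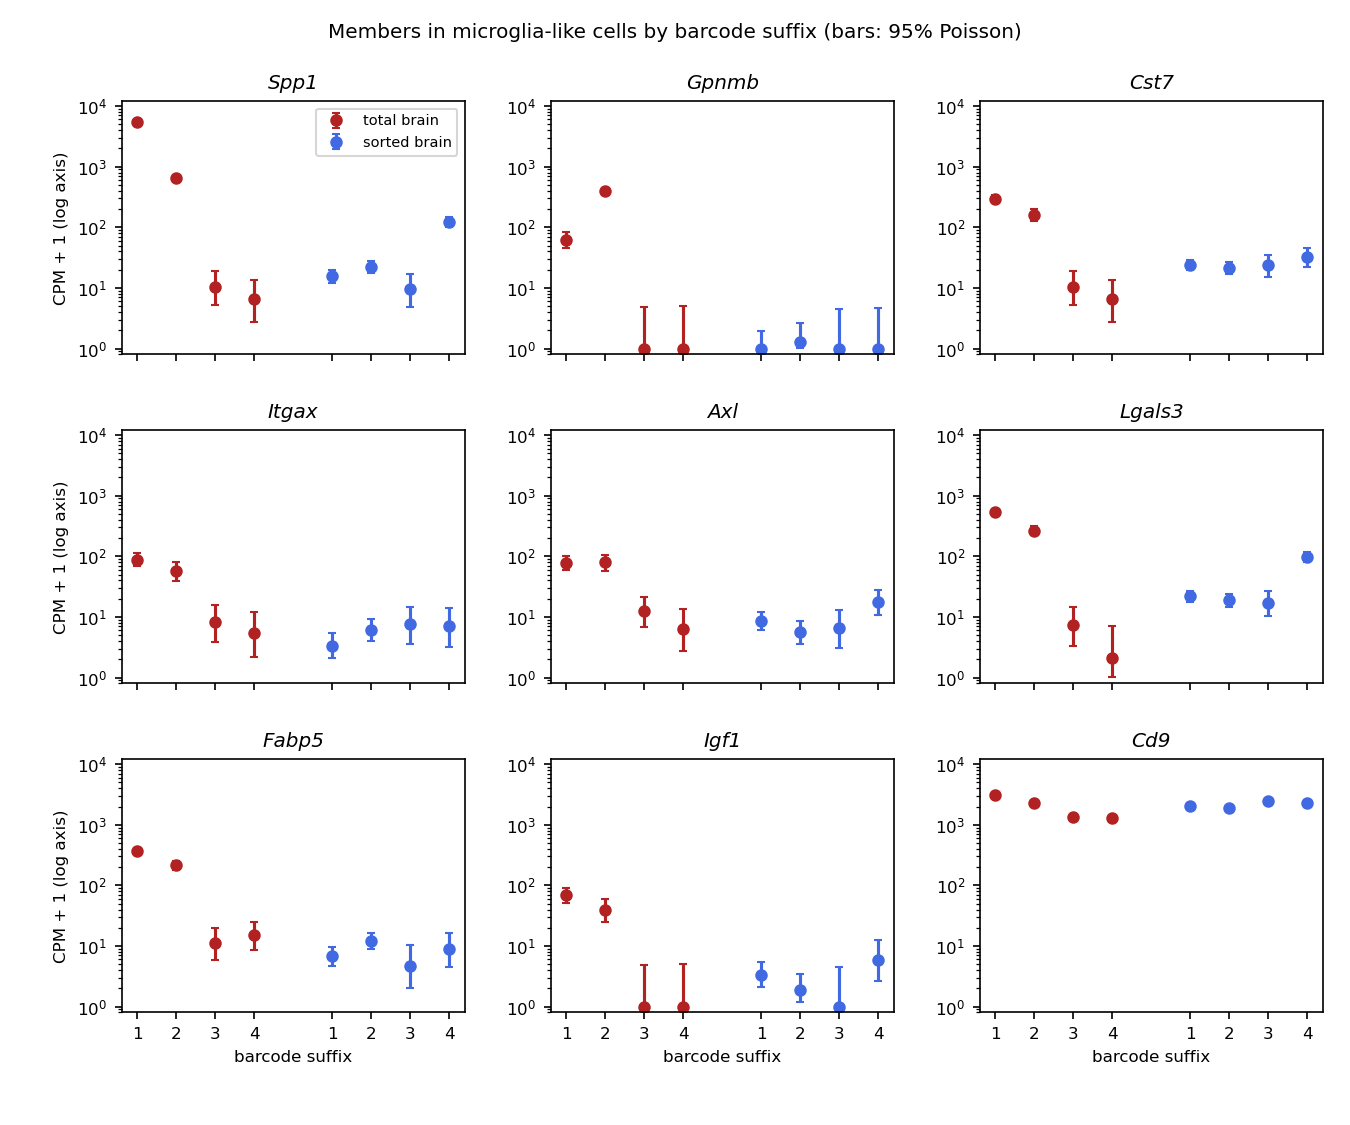
Level of each measured member in microglia-like cells by barcode suffix, as CPM + 1 on a log axis, for total brain (red, left) and sorted brain (blue, right); points are summed counts and bars exact 95% Poisson intervals. Suffixes 1 and 2 of total brain stand above suffixes 3 and 4 for every member, by a small margin for Cd9, and Spp1 and Lgals3 are highest in suffix 4 among those of sorted brain.

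Spp1 was at 1421.5 CPM [1380.4 to 1463.4] in total brain and 27.6 CPM [24.3 to 31.2] in sorted brain, a log2 ratio of 5.64. By suffix 1 to 4 its level was 5430, 654, 9.35 and 5.44 CPM in total brain, and 14.5, 20.9, 8.41 and 120.6 CPM in sorted brain. Suffixes 1 and 2 of total brain thus carried the high level, and suffixes 3 and 4 lay near or below the lowest suffix of sorted brain. Lgals3 was at 175 CPM in total brain and 27.4 CPM in sorted brain. By suffix it was at 530, 265, 6.24 and 1.09 CPM in total brain, and at 20.8, 17.8, 15.9 and 97.7 CPM in sorted brain, with the same suffixes at the top as for Spp1. Igf1 was at 22.9 CPM in total brain and 1.82 CPM in sorted brain, and its 73 UMIs in total brain all came from suffixes 1 (67.7 CPM) and 2 (38.4 CPM). A count of 0 in suffixes 3 and 4 allows up to 3.12 and 3.27 CPM there.

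Gpnmb had 261 UMIs (81.7 CPM) in total brain and 1 UMI (0.107 CPM) in sorted brain, a ratio of 764 with a counting interval of 136 to 30299. Its level by suffix of total brain was 61.2, 392, 0 and 0 CPM. The level in suffix 2 rests on 1 cell, which held 200 of the 214 Gpnmb UMIs there. Itgax was at 34.1 CPM in total brain and 4.28 CPM in sorted brain, with 87.3, 56.8, 7.28 and 4.36 CPM by suffix of total brain. Its level in suffixes 3 and 4 of total brain is near the 2.37 to 6.54 CPM of the sorted suffixes. Axl was at 36.9 CPM in total brain and 7.27 CPM in sorted brain, with 76.8, 78.7, 11.4 and 5.44 CPM by suffix of total brain and 4.59 to 16.9 CPM in sorted brain.

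Cst7 was at 102 CPM in total brain and 22.9 CPM in sorted brain. Suffixes 1 to 4 of total brain had 294, 159, 9.35 and 5.44 CPM, and those of sorted brain 22.9, 20.6, 22.4 and 30.9 CPM. Sorted brain was the more even of the samples, and it lay between the high and the low suffixes of total brain. Fabp5 was at 131 CPM in total brain and 7.80 CPM in sorted brain, with 362, 212, 10.4 and 14.2 CPM by suffix of total brain and 3.74 to 11.2 CPM in sorted brain. Cd9 was at 1925 CPM in total brain and 2067 CPM in sorted brain, a log2 ratio of −0.10 that ran from −0.64 to 0.08 over the processing alternatives. It was the member present in most microglia-like cells, with a UMI in 507 of 575 cells of total brain and 4173 of 4422 of sorted brain, and its level by suffix was 3150, 2274, 1362 and 1283 CPM in total brain and 2075, 1873, 2464 and 2285 CPM in sorted brain.

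In total brain the level of Cd9 was 2.45-fold higher in the highest than in the lowest suffix, with 1 CPM added to both. The low suffixes of the other members hold few UMIs, so their levels are given above without a fold. In sorted brain the same ratio was 1.47-fold for Cst7 and 1.32-fold for Cd9. It was 12.9-fold for Spp1 and 5.84-fold for Lgals3, with suffix 4 highest and suffix 3 lowest, but these 2 values rest on few cells. In suffix 4, 1 cell held 116 of the 121 Spp1 UMIs and 1 cell held 67 of the 98 Lgals3 UMIs. Suffix 3 held 9 Spp1 UMIs and 17 Lgals3 UMIs. Summed over the members, the level was 10060, 4131, 1416 and 1319 CPM in suffixes 1 to 4 of total brain and 2152, 1954, 2527 and 2570 CPM in those of sorted brain. Cd9 made up 49.0% of the summed UMIs in total brain and 95.4% in sorted brain. The suffixes held 125, 102, 179 and 169 microglia-like cells in total brain and 1637, 1416, 626 and 743 in sorted brain, and the summed microglia markers were at 17220, 18018, 25321 and 26404 CPM in total brain and 35270, 35262, 33866 and 30555 CPM in sorted brain. Microglia markers were thus lowest in the suffixes of total brain where the members were highest. Tmem173, which encodes STING, had 2.60, 212, 296 and 5.44 CPM in the same 4 suffixes of total brain and 321, 2.87, 23.4 and 236 CPM in those of sorted brain, so the suffixes high in the members included 1 with little and 1 with much Tmem173.

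Without suffix 1 of total brain, 7 of 9 members were at least 2-fold higher than in sorted brain and 0 were lower, against 25.7% and 4.13% of all genes, and Cst7, at a log2 ratio of 0.84, was the one lost. With suffixes 1 and 2 of total brain both left out, a choice made after these values were seen, 0 of the 8 members with enough UMIs were at least 2-fold higher and 4 were lower, namely Spp1, Cst7, Lgals3 and Igf1. Of all 12540 genes, 27.0% were as much higher and 5.09% as much lower in that comparison.

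**Figure D2:**
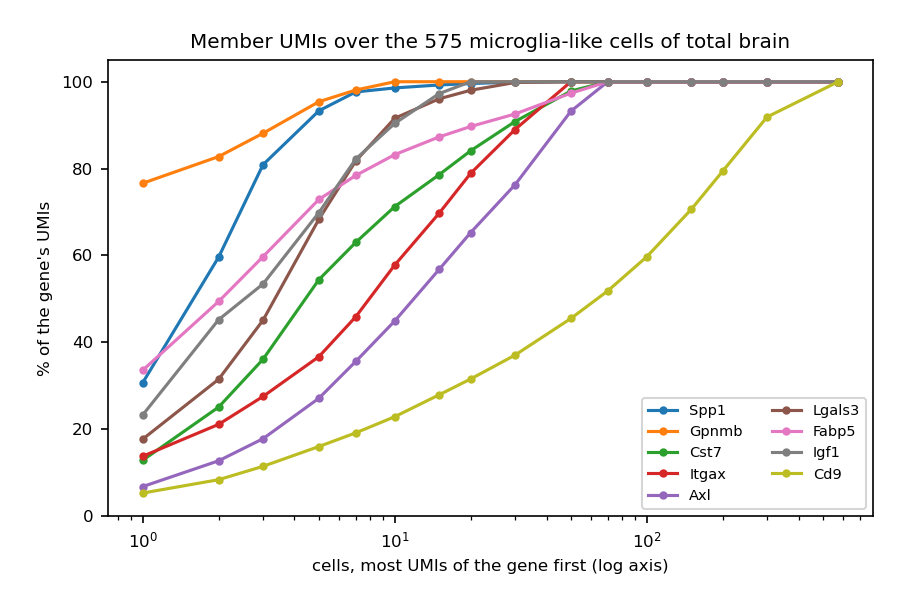
Share of each member's UMIs in the 575 microglia-like cells of total brain (percent) held by the cells with the most UMIs of that gene, against the number of such cells on a log axis. Spp1 and Gpnmb reach over 90% within 5 cells, and the curve of Cd9 rises slowly, with 16.0% in the top 5 cells.

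The high levels came from few cells. In total brain, 34 of 575 microglia-like cells held the 4541 Spp1 UMIs, and the top 5 cells held 93.3% of them. The first of these, in suffix 1, had 1395 Spp1 UMIs, 30.7% of the sum, among 64876 UMIs of all genes. Of the 261 Gpnmb UMIs, 200 (76.6%) lay in 1 cell of suffix 2, which also had 275 Spp1 UMIs. The top 5 cells held 72.9% of Fabp5, 69.9% of Igf1, 68.3% of Lgals3, 54.4% of Cst7, 36.7% of Itgax, 27.1% of Axl and 16.0% of Cd9 UMIs. In sorted brain 45 of 4422 cells held the 258 Spp1 UMIs, and 1 cell of suffix 4 held 116 of them (45.0%). A single cell of suffix 4 likewise held 67 of the 256 Lgals3 UMIs (26.2%). The level of 120.6 CPM of Spp1 in that suffix therefore describes few cells.

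The 5 cells of total brain with the most Spp1 lay in clusters 0, 3 and 12 and had 796 to 2676 Apoe UMIs, 0 to 4 P2ry12 UMIs and 0 or 1 Tmem119 UMI each. Apoe encodes the main lipid carrier of the brain. None was called a doublet, although the caller marked only 7 cells of total brain and cannot be relied on there. Markers of border macrophages reached 978 CPM in one of them and 452 CPM in another, and 0 to 117 CPM in the other three. These markers summed to 33.2 CPM over all microglia-like cells of total brain and to 2561 CPM in border macrophage-like cells of sorted brain. Microglia markers summed to 5176 to 9707 CPM in the 5 cells, against 22437 CPM over all microglia-like cells of total brain. In total brain, 6 microglia-like cells had more than 20000 UMIs (4, 1, 1 and 0 by suffix 1 to 4) and held 42.3% of all member UMIs, and sorted brain had 0 such cells. Without them, the summed level in total brain was 2405 CPM, the log2 ratio of Spp1 3.34 and the number of members at least 2-fold higher again 8 of 9, with 0 lower, against 24.8% and 4.00% of all genes. With every cell given the same weight, the summed level was 2285 CPM and the log2 ratio of Spp1 4.20.

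Shares of cells were compared after thinning each cell to 1000 UMIs, which left 552 of 575 microglia-like cells of total brain and 4175 of 4422 of sorted brain. A UMI of Spp1 was then found in 2.90% [1.67 to 4.66] of cells in total brain and 0.599% [0.388 to 0.883] in sorted brain, of Cst7 in 3.26% and 1.77%, of Lgals3 in 2.54% and 1.10%, of Axl in 2.54% and 0.671%, and of Itgax in 2.17% and 0.335%. Fabp5 was found in 4.17% of cells in total brain and 0.671% in sorted brain, Igf1 in 1.09% and 0.192%, Gpnmb in 0.906% and 0.0240%, and Cd9 in 70.3% and 82.6%. Before thinning, the share of cells with Spp1 was 5.91% in total brain and 1.02% in sorted brain. For comparison, neuron-like cells of total brain (median 1467 UMIs) had a UMI of Cst7 in 0.0271%, of Lgals3 in 0.298%, of Spp1 in 1.25%, of Igf1 in 1.06% and of Fabp5 in 2.93% of thinned cells, and B cell-like cells of sorted brain (median 1551 UMIs) had Spp1 in 0.295%, Cst7 in 0.148%, Axl in 0.443%, Fabp5 in 0.739% and Lgals3 in 3.69%. The shares of Igf1 in total brain and of Fabp5, Lgals3 and Axl in sorted brain thus lay below or close to those of a neuronal or lymphoid class. That of Fabp5 in total brain was 4.17%, against 2.93% in neuron-like cells. These shares are not read as expression by themselves, although the genes do enter the counts of members, of cells with 3 or more members and of pairs.

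**Figure D3:**
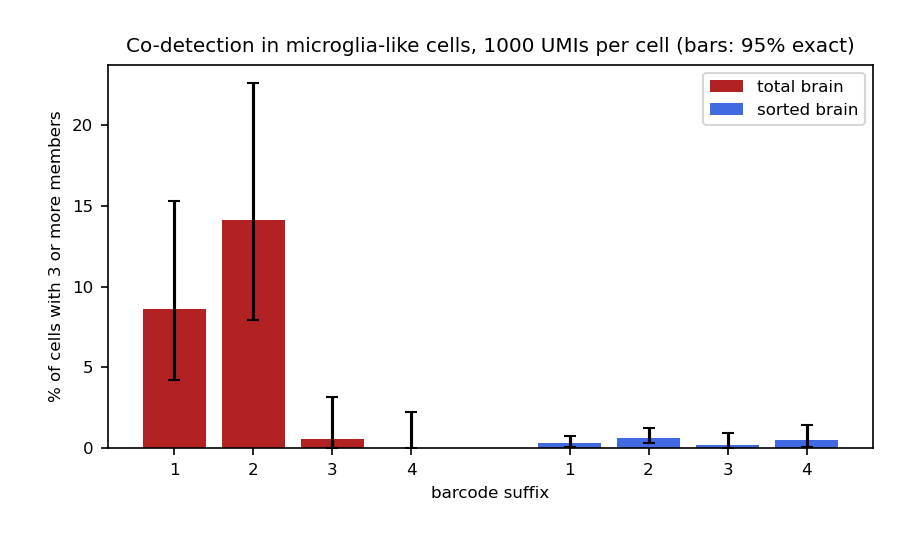
Percent of microglia-like cells with a UMI of 3 or more of the 9 measured members, each cell thinned to 1000 UMIs, by barcode suffix of total brain (red, left) and sorted brain (blue, right); bars are exact 95% binomial intervals. Suffixes 1 and 2 of total brain reach 8.62% and 14.1%, and the other 6 stay below 1%.

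The members met in the same cells. After thinning, 25 of 552 microglia-like cells of total brain held a UMI of 3 or more members, or 4.53% [2.95 to 6.61], and 18 of 4175 of sorted brain did, or 0.431% [0.256 to 0.681]. By suffix 1 to 4 the share was 8.62%, 14.1%, 0.578% and 0% in total brain, the last from 0 of 164 cells with an interval of 0 to 2.22%, and 0.313%, 0.646%, 0.172% and 0.500% in sorted brain. The highest number was 7 members in 1 cell of total brain and 5 members in 1 cell of sorted brain. Without thinning, the shares were 11.0% in total brain and 1.13% in sorted brain. Of the 25 cells of total brain, 13 each had Spp1, Lgals3 and Fabp5, 12 Cst7, 8 Itgax, 6 Axl, 5 Gpnmb, 4 Igf1 and all 25 Cd9. Of the 18 cells of sorted brain, 17 had Cd9, 10 Cst7, 8 Spp1, 7 Itgax, 6 Lgals3, 5 Igf1 and 4 each Axl and Fabp5. They lay in all 3 microglia-like clusters of total brain (13 in cluster 0, 9 in cluster 3 and 3 in cluster 12), or 3.05%, 7.69% and 33.3% of the thinned cells there, the last of 9 cells. In sorted brain 9 lay in cluster 3 and 9 in cluster 12, or 0.354% and 0.552%.

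The 9 members form 36 pairs, counted over the thinned cells. In 31 pairs of total brain and 26 of sorted brain, a gene was found in a larger share of cells with the other gene than of cells without it. In no cell of total brain were both genes of 5 pairs found, and in no cell of sorted brain those of 9 pairs. For pairs without Cd9, 1 shared cell was enough to give the larger share, as for Axl with Fabp5 in sorted brain. The counts of pairs are thus no test of co-detection, and pairs of other genes were not counted. In total brain, Spp1 was found in 6 of 18 cells with Cst7, or 33.3%, and in 10 of 534 cells without it, or 1.87%. Lgals3 was found in 8 of 23 cells with Fabp5, or 34.8%, and in 6 of 529 cells without it, or 1.13%. Fabp5 was found in 7 of 16 cells with Spp1, or 43.8%, and in 16 of 536 without it, or 2.99%. In sorted brain, Cst7 was found in 5 of 25 cells with Spp1, an interval of 6.83% to 40.7%, and in 69 of 4150 cells without it, or 1.66% [1.30 to 2.10]. Itgax was found there in 3 of 25 cells with Spp1, or 12.0%, and in 11 of 4150 without it, or 0.265%. In each of these 5 pairs, picked after their values were seen, the gene named first was more frequent in cells with the other, on counts of 3 to 8 cells. The suffixes were pooled for these pairs, and in total brain the members differ between suffixes.

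Outside microglia-like cells, 2 or more members other than Cd9 met in 11.4% [7.21 to 16.9] of monocyte-like, 7.47% [5.06 to 10.6] of border macrophage-like, 5.03% of NK cell-like, 4.07% of neutrophil-like and 3.66% of fibroblast-like cells of sorted brain and in 8.60% [3.79 to 16.2] of fibroblast-like and 2.37% of astrocyte-like cells of total brain. The same share in microglia-like cells was 4.71% in total brain and 0.431% in sorted brain. It was 0.190% in neuron-like cells of total brain and 0.0403% in choroid plexus-like cells of sorted brain.

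**Figure D4:**
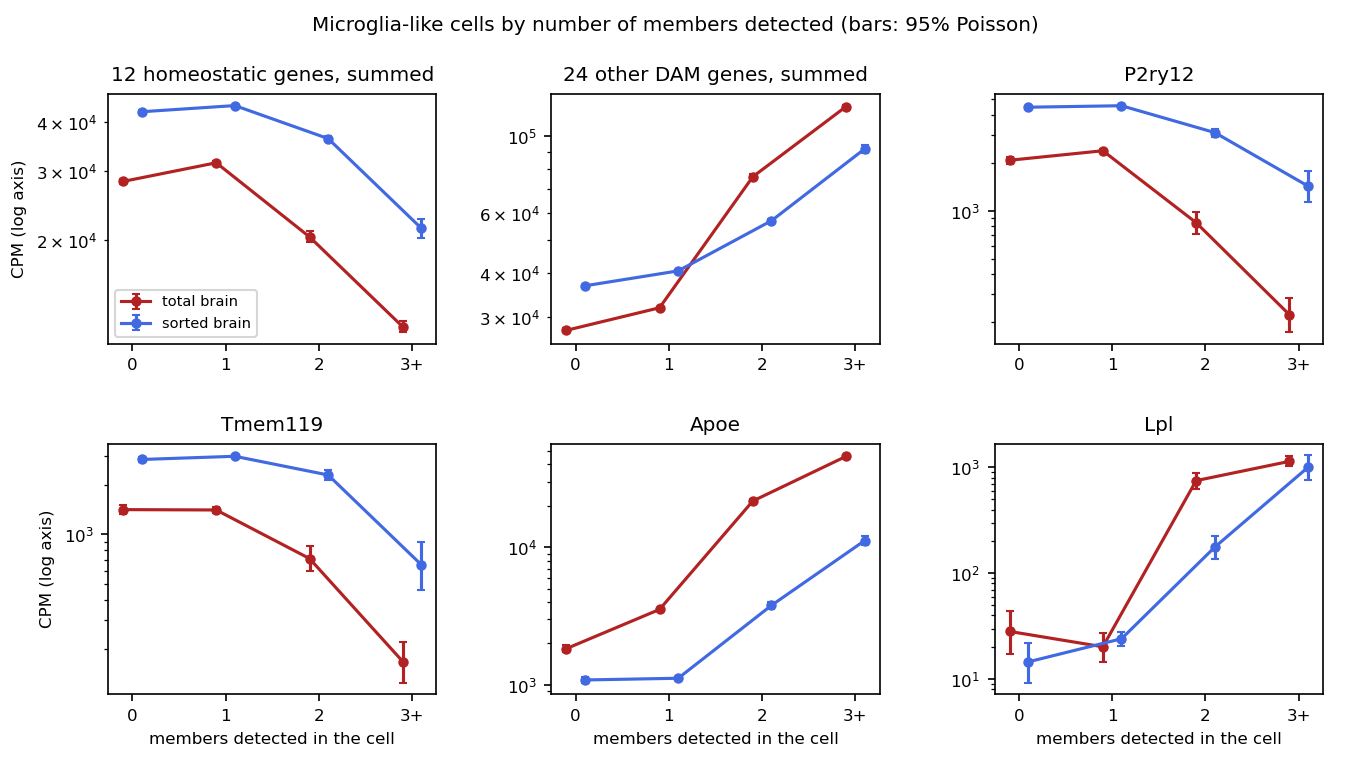
Levels in microglia-like cells against the number of members detected in the cell after thinning (0, 1, 2, or 3 and more), as CPM on log axes, for the summed homeostatic genes, 24 further genes of the state, P2ry12, Tmem119, Apoe and Lpl, in total brain (red) and sorted brain (blue); bars are exact 95% Poisson intervals. Homeostatic genes are lowest and Apoe and Lpl highest in cells with 3 or more members in both samples.

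Other genes of the state were high in the cells where members met. Apoe was at 45790 CPM in the cells of total brain with 3 or more members and 1829 CPM in those with 0, and at 11183 and 1084 CPM in those of sorted brain. Lpl, a lipoprotein lipase, was at 1140 and 28.2 CPM in total brain and at 1004 and 14.5 CPM in sorted brain. A few cells carry these levels. Of the 339 Lpl UMIs in the 25 cells of total brain, 196 lay in 1 cell, and 11 of the cells had any. The top 5 cells held 9770 of the 13613 Apoe UMIs in total brain and 508 of 635 in sorted brain, and 24 of 25 and 17 of 18 cells had some Apoe. Without cells over 20000 UMIs, Lpl was at 382 and 29.0 CPM and Apoe at 43846 and 1584 CPM in total brain. The lysosomal gene Cd63 was at 3169 and 335 CPM in total brain and at 3064 and 552 CPM in sorted brain, and the ferritin gene Fth1 at 13125 and 3449 CPM in total brain and at 9774 and 3491 CPM in sorted brain. The proteases Ctsb and Ctsd, the antigen Cd52 and the adaptor Tyrobp followed, whereas the receptor Trem2 was at 3596 and 2076 CPM in total brain and at 2712 and 2619 CPM in sorted brain. The 24 further genes of the state summed to 121658 and 27365 CPM in total brain and to 91786 and 36824 CPM in sorted brain. In total brain the number of members moves with the suffix, since 24 of the 25 cells with 3 or more members and 49 of the 156 with 0 came from suffixes 1 and 2. Within those 2 suffixes, a choice made after seeing the data, Apoe was at 47021 CPM in cells with 3 or more members and 4095 CPM in cells with 0, Lpl at 1171.5 and 79.6 CPM, and the 24 genes together at 123427 and 33305 CPM.

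Homeostatic genes had the opposite order. P2ry12 was at 222 CPM in cells of total brain with 3 or more members and 2073 CPM in those with 0, and at 1427 and 4467 CPM in sorted brain. Tmem119 was at 168 and 1414 CPM in total brain and at 652 and 2854 CPM in sorted brain. The fractalkine receptor Cx3cr1 was at 838 and 2826 CPM in total brain and at 881 and 2417 CPM in sorted brain, and Csf1r, the receptor for the microglial survival factor, at 969 and 3388 CPM in total brain and at 2043 and 3727 CPM in sorted brain. The 12 homeostatic genes summed to 12042 and 28243 CPM in total brain and to 21450 and 42505 CPM in sorted brain. Within suffixes 1 and 2 of total brain, P2ry12 was at 200.4 and 1806 CPM, Tmem119 at 166 and 1373 CPM and the 12 genes together at 11840 and 23130 CPM. The summed levels rest on 25 and 156 cells of total brain with median depths of 8521 and 2345.5 UMIs, and on 18 and 703 cells of sorted brain with 2482.5 and 2185 UMIs. Border macrophage markers were at 158 and 14.1 CPM in total brain and 17.6 and 11.4 CPM in sorted brain, and monocyte markers at 141 and 22.5 CPM in total brain and 35.2 and 22.1 CPM in sorted brain, and their part in these levels was not tested.

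Over all microglia-like cells, 23 of the 24 further genes of the state had enough UMIs to compare the samples, and 7 were at least 2-fold higher and 1 lower in total brain, with a median log2 ratio of 0.08. These counts, like those of the lists that follow, stand beside the 24.3% of all genes that were as much higher and the 4.09% as much lower, and 7 of 23 is near that background. The 4 with the largest ratios were the sterol enzyme gene Ch25h (24.4 CPM in total and 1.82 CPM in sorted brain, log2 ratio 3.17), the protease inhibitor Timp2 (678 and 86.8 CPM, 2.95), the inhibitory receptor Lilrb4a (27 UMIs in total and 3 in sorted brain, a ratio of 26.4 with a counting interval of 8.11 to 136) and the growth factor Csf1 (85.8 and 11.4 CPM, 2.80). Apoe (8136 CPM in total and 1270 CPM in sorted brain), Ank and Lpl were the other 3, and B2m, the light chain of class I molecules, was the lower gene (2140 CPM in total and 4484 CPM in sorted brain). Of 12 homeostatic genes, 3 were lower in total brain, namely Tmem119 (1247 CPM against 2918 CPM in sorted brain), P2ry12 (2013 against 4452 CPM) and Olfml3, while the transcription factor Sall1 was at the 2-fold limit in the other direction (241 against 120 CPM). The median of the list was −0.53.

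Receptors and partners of the members were compared as a list of 17 genes, of which 6 were higher and 0 lower, with a median log2 ratio of 0.52. The 4 with the largest ratios were Itgb5, an integrin beta chain that pairs with the alpha chain Itgav to bind osteopontin (1147 CPM in total and 244 CPM in sorted brain), Tyro3, a kinase of the Axl family (4.07 and 0.535 CPM), the osteopontin receptor Cd44 (6.57 and 1.92 CPM) and Itgav (110 and 43.3 CPM). The others were Igf1r, the receptor for Igf1, and the kinase Syk. Among those below 2-fold were Gas6, the Axl ligand (143 CPM in total and 153 CPM in sorted brain), Pros1, a second ligand of the family (252 and 270 CPM), the kinase Mertk (418 and 246 CPM) and Itgb2, the beta chain that pairs with Itgax (291 and 340 CPM). Of 10 interferon genes 4 were higher (Ifit2, Ifit3, Ifit1 and Oasl2), of 10 immediate early genes, known to respond to dissociation of tissue, 2 (Fosb and Egr1), and of 4 proliferation genes with enough UMIs none. Their part in the members' levels was not tested. Within cluster 3 alone, 0 of the 10 immediate early genes were higher and 8 were lower in total brain, against 9.83% and 34.2% of all genes there.

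**Figure D5:**
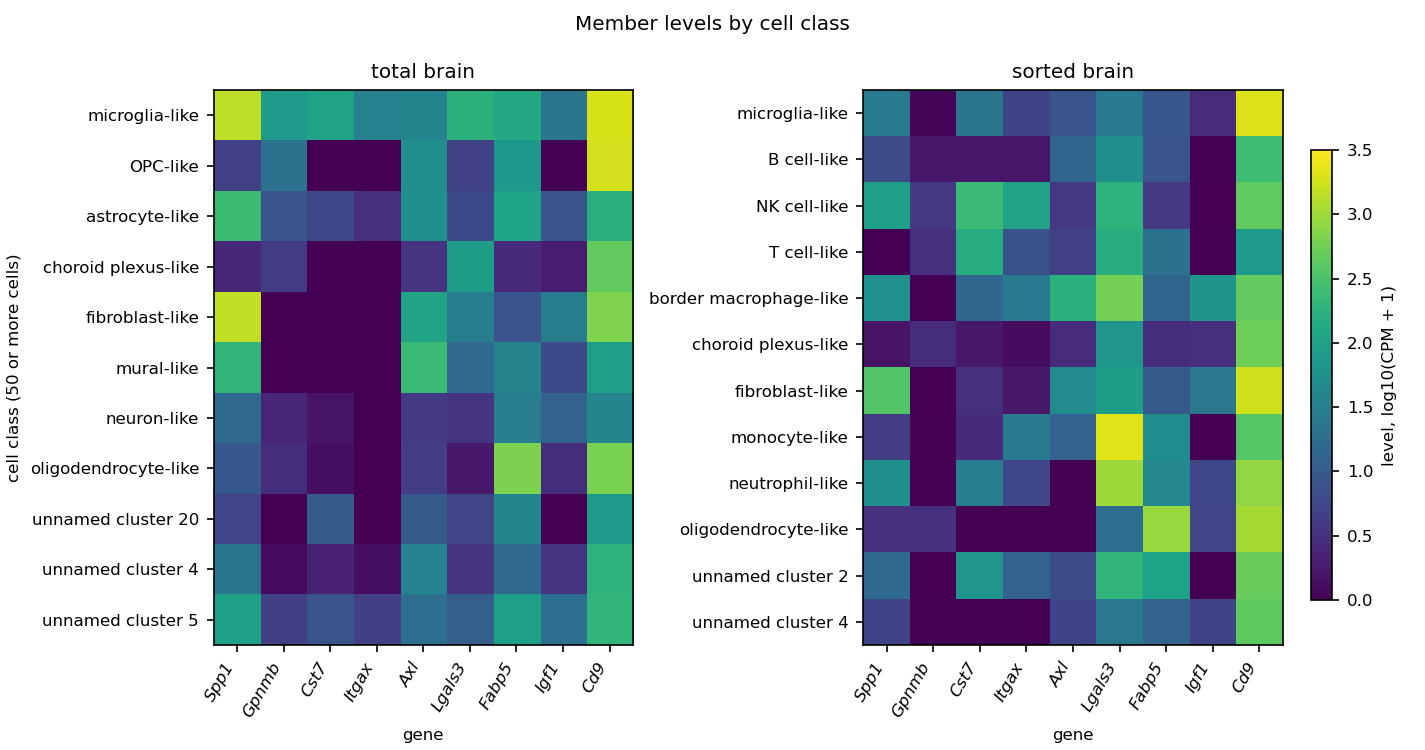
Level of each measured member (columns) in each cell class with at least 50 cells (rows) of total brain (left) and sorted brain (right), as log10(CPM + 1) in colour. Cd9 is the one member above 30 CPM in every class shown. Fabp5 is brightest in oligodendrocyte-like cells of both samples and Lgals3 in monocyte-like cells of sorted brain. Spp1 is brightest in fibroblast-like cells of both samples, with a similar level in microglia-like cells of total brain only.

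Across cell classes the members parted. They were set against all other kept cells of the same sample in classes that were built without them. In total brain 7 of 9 members were at least 2-fold higher in microglia-like than in the other cells, against 9.72% of 18122 genes, and the exceptions were Axl (36.9 CPM in microglia-like and 22.2 CPM in other cells) and Fabp5 (131 and 94.7 CPM). In sorted brain 1 of 9, Cd9 (2067 CPM in microglia-like and 575 CPM in other cells), was higher, against 21.3% of 15707 genes, and 5 were lower, against 23.5%: Lgals3 (27.4 and 180 CPM), Fabp5 (7.80 and 33.5 CPM), Igf1, Gpnmb and Axl. With suffixes 1 and 2 of total brain left out, 3 members were higher in microglia-like cells of total brain, against 10.0% of genes. The other cells of total brain are mostly neurons and those of sorted brain mostly choroid plexus and blood cells, so the 2 counts have different denominators.

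Lgals3 was at 2144 CPM [2028 to 2265] in monocyte-like, 979 CPM [889 to 1076] in neutrophil-like and 579 CPM [538 to 622] in border macrophage-like cells, all of sorted brain. These intervals cover counting error only and not the spread between suffixes. The suffixes of sorted brain with at least 50 monocyte-like cells had 1896, 2480 and 2165 CPM, and those with border macrophage-like cells 410 to 670 CPM. Choroid plexus-like cells had 91.9 CPM in total brain and 66.0 CPM in sorted brain. Spp1 was at 1445 CPM in fibroblast-like cells of total brain and 353 CPM in those of sorted brain, and was found in 34.4% of the thinned cells in total brain and 20.4% in sorted brain. The fibroblast-like cells of total brain lay mostly in cluster 22, led by Dcn (78 cells in total and 12 in sorted brain), and those of sorted brain in cluster 13, led by Mgp (45 and 391 cells), so the levels of this class come from different clusters. Mural-like cells, which wrap vessels, had 191 CPM in total brain. In astrocyte-like cells of total brain it was at 250.6 CPM, but 566 of the 637 UMIs lay in 1 cell of suffix 1, and by suffix the level was 1990, 33.5, 7.8 and 2.5 CPM. Igf1 was at 64.2 CPM in border macrophage-like cells of sorted brain, with 47.6 to 76.4 CPM by suffix, at 28.8 CPM in fibroblast-like cells of total brain and 23.6 CPM in those of sorted brain, and at 12.2 CPM in neuron-like cells.

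Axl was at 243 CPM [196 to 297] in mural-like cells of total brain, 110 CPM in fibroblast-like cells of total brain and 47.3 CPM in those of sorted brain, and 172 CPM [150 to 197] in border macrophage-like cells of sorted brain, where the suffixes ran from 112 to 235 CPM. Microglia-like cells ranked below these in both samples. Itgax was at 103 CPM [72.7 to 142] in NK cell-like cells, 26.9 CPM in monocyte-like cells and 25.9 CPM in the border macrophage-like class of sorted brain, and the last pair of levels is within counting error. In neuron-like cells of total brain its count was 0, which allows up to 0.281 CPM. Gpnmb was at 19.0 CPM [6.16 to 44.2] in precursors of oligodendrocytes of total brain, on 5 UMIs, and at 7.08 CPM in astrocyte-like cells, and it was below 3 CPM in all 12 classes of sorted brain, 6 of them with 0 UMIs. Cd9 was at 1813 CPM in the precursor class, but 325 of its 478 UMIs there lay in 1 cell. It was at 667 CPM in fibroblast-like cells of total brain and 1749 CPM in those of sorted brain, at 631 and 1054 CPM in oligodendrocyte-like cells and at 449 and 537 CPM in choroid plexus-like cells.

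Cst7 was at 246 CPM [197 to 302] in NK cell-like and 148 CPM [130 to 169] in T cell-like cells of sorted brain, above the microglia-like cells of that sample, and in T cell-like cells the suffixes ran from 79.0 to 196 CPM. In oligodendrocyte-like cells 1 UMI was found in total brain and 0 in sorted brain. Fabp5 had its highest level in oligodendrocyte-like cells of both samples, 649 CPM [619 to 680] in total brain and 914 CPM [829 to 1006] in sorted brain. By suffix 1 to 4 of total brain it was at 709, 690, 648 and 612 CPM there, an even level, unlike the 362, 212, 10.4 and 14.2 CPM in microglia-like cells. Its share among thinned oligodendrocyte-like cells was 19.1% in total brain and 56.1% in sorted brain. These cells lay mostly in cluster 6 in total brain (551 cells, and 2 in sorted brain) and in cluster 23 in sorted brain (118 cells in total and 150 in sorted brain). For the choroid plexus-like class, cluster 8 held 246 cells of total and 99 of sorted brain, and cluster 9 held 102 of total and 2405 of sorted brain. Differences between samples in both classes are thus also differences between clusters. In these 2 classes, 0 of 7 members were at least 2-fold higher and 0 lower in choroid plexus-like cells of total brain, against 24.5% and 3.33% of genes. In oligodendrocyte-like cells 1 of 4 was higher and 1 lower in total brain, against 42.9% and 6.04% of genes. The higher one was Spp1 (21 UMIs in total and 1 UMI in sorted brain, a ratio of 3.66 with a counting interval of 0.588 to 151) and the lower one Lgals3 (2 UMIs in total and 8 UMIs in sorted brain, a ratio of 0.0435 with 0.00450 to 0.218).

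The genes with the most similar pattern were sought over 23 classes (11 of total and 12 of sorted brain) among 10353 genes, by Pearson's r of log2(CPM + 1), given without a test since classes of 1 sample share its libraries and depth. For Cst7 they were Tnfaip3 (0.88), Klrd1 (0.82) and Itgax (0.81), and for Itgax they were Gpr65, Cd244 and Cxcl10 (0.86 to 0.85). For Fabp5 they were Anln, Mbp and Tspan2 (0.83 to 0.80), of which Mbp encodes a major myelin protein, and for Lgals3 Aprt, Cdk2ap2 and Prr13 (0.87 to 0.85). For Spp1 they were Zfhx3, Cited2 and Kctd12 (0.77 to 0.76), for Igf1 Adam33 (0.76), Spp1 (0.68) and Otud1 (0.66), for Axl Lpp, Pid1 and Colec12 (0.79 to 0.76), for Gpnmb Nav3, Gm32849 and Itga9 (0.68 to 0.59) and for Cd9 Tmed3, Pdia6 and Fuca1 (0.82 to 0.74). Between members, r was 0.69 for Itgax with Lgals3 and 0.60 for Spp1 with Axl, and −0.29 for Fabp5 with Lgals3, and Spp1 and Lgals3, which met in single microglia-like cells, had an r of 0.04 over classes.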

How the data were processed

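Per the labels, brain tissue was digested with enzymes at raised temperature, about 9000 cells were loaded per well and 3′ libraries were sequenced. The deposited values are raw UMI counts per gene and barcode from Cell Ranger (3.0.2 per the submitters' processing notes, 3.1.0 for total and 3.0.2 for sorted brain per the file headers) on mm10. No source used here names the annotation release. The tables held 0 columns of other samples.

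The 10 members and the gene lists were chosen with earlier results of these data known. Cells were scaled to 10000 counts and clustered on 2000 variable genes, 30 principal components and 15 neighbours (Leiden, resolution 1, scanpy 1.11.5, Python 3.11.15), leaving out the members and the 24 further genes of the state. A cluster was named when at least 50% and 3 of a class's markers (20 lists) were raised 2-fold with 10 CPM added, and left unnamed when at least 80% of another class's markers were raised or the 10 leading genes fitted another class better. One condition of that last kind, which left 2 clusters unnamed, was added after seeing the data. Called doublets (7 in total and 85 in sorted brain) were not removed. Levels are UMIs summed over a class per 1000000, with intervals at 95% and a floor of 3 counts for a count of 0, and cells are not replicates. Log2 ratios add 1 CPM and need 10 UMIs. All members were named, with up to 4 genes per list and direction past 2-fold, and the 3 most similar genes with at least 50 CPM. Levels, ratios and shares were recalculated under the alternatives named in the closing section. The ratio calculation was tested on simulated data.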

Additional observations from a re-analysis of the deposited data

Results flagged for a closer look

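The barcodes removed by the filter on genes and mitochondrial share, which enter no comparison, also held member UMIs. Their summed level was 505.37 CPM in total brain (7443 UMIs in 5307 barcodes) and 460.38 CPM in sorted brain (2579 UMIs in 3423 barcodes), above the limit that a count of 0 allows. Spp1 was at 78.6 CPM and Fabp5 at 82.7 CPM in the removed barcodes of total brain, and at 10.2 CPM and 18.0 CPM in those of sorted brain, and Gpnmb at 6.45 CPM in total brain and 0 in sorted brain.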

How the results depend on the processing

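No paired analysis was possible because each group is 1 pooled sample. The 8 higher members stayed 7 or 8 and the 0 lower members 0 when each suffix was left out in turn, and at 8 and 0 with each other setting (filters, doublets removed, clustering with the members, other resolutions, 10 CPM added, other UMI minimums, equal weight per suffix, TMM, and no mitochondrial or ribosomal protein genes). Over these settings the share of all genes at least 2-fold higher ran from 8.42% (10 CPM added) to 25.7% and of those lower from 0.692% to 9.79% (TMM). Members higher in microglia-like than in other cells ranged from 6 to 8 in total brain and stayed at 1 in sorted brain, except for 3 in total brain as below. At resolutions 0.5 and 2 and when clustered with the members, 1 cluster with all 10 microglia markers raised was left unnamed. It had Ccl4 and Ccl3 among its leading genes. Its 1318, 983 and 1092 cells of sorted brain thus left the microglia-like class and counted among the other cells.

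The summed level in total brain was 3740 CPM with a looser filter (200 genes, 20% mitochondrial), 4176 CPM with a stricter one (1000 genes, 5%), 3768 CPM when clustered with the members, 3767 CPM at resolution 0.5, 4231 CPM with equal weight per suffix, 4528 CPM without mitochondrial and ribosomal protein genes, and 1990 to 5013 CPM leaving out 1 suffix. In sorted brain the same settings gave 2127, 2125, 2119, 2135, 2301 and 2435 CPM, and 2117 to 2292 CPM leaving out 1 suffix. The share of cells with 3 or more members was 2.61% in total and 0.181% in sorted brain with 500 UMIs per cell, 11.0% and 1.13% without thinning, and 2.43% to 6.44% in total and 0.324% to 0.505% in sorted brain leaving out 1 suffix.

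The following 4 alternatives were chosen after seeing the data. In cluster 3 alone the summed level was 4303 CPM in total and 2133 CPM in sorted brain, and the share with 3 or more members in total brain 7.69%. Leaving out cells over 20000 UMIs gave 2405 CPM and equal weight per cell 2285 CPM in total brain. Without suffixes 1 and 2 of total brain the summed level was 1368 CPM, the share 0.297%, the members higher 0 (27.0% of all genes) and lower 4 (5.09%), and the members higher than in other cells 3 (10.0%). There the log2 ratio was −1.76 for Spp1, −1.50 for Cst7, −2.59 for Lgals3 and, with 0 UMIs in total brain and 1 CPM added, −1.49 for Igf1. Itgax (0.38), Axl (0.20) and Fabp5 (0.59) were below 2-fold, and the cause was not tested. Per suffix, total brain has 102 to 179 microglia-like cells.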
